A study of Homo sapiens with 12 samples.

Results

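The mRNAs described here encode the ubiquitin-conjugating (E2) enzymes and the ubiquitin-specific proteases (USP) of A673, an established Ewing sarcoma cell line. Members were all genes of the count table with a symbol of the form UBE2 plus a letter and an optional number, or USP plus a number and an optional X or L. The pattern took 83 of the 26334 gene symbols, 33 for E2 enzymes and 50 for USP. Of these, 75 had a mean of at least 10 counts and were tested, 31 E2 and 44 USP. The cells, labelled shA673-1c, received 5 µM actinomycin D, which blocks transcription, for 0, 1, 2 or 4 h. Each time point held 3 biological replicates, so there were 12 poly(A) RNA-Seq libraries. All groups, the 0 h control included, shared the line, the drug dose named on the labels, a high-glucose medium with serum, and blasticidin and zeocin as selection. What the prefix and suffix of the line's label stand for is not stated there, and 1 cell line was studied. The sample titles at every time point also carry the tag CTL, whose meaning they do not state.

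Ubiquitin is joined to proteins by a relay. An E1 enzyme activates it, an E2 enzyme carries it on a cysteine, and an E3 ligase brings the loaded E2 to the substrate. The E2 helps to set which lysine of ubiquitin the next one is linked to, and so whether a chain sends the protein to the proteasome, as lysine-48 chains do, or serves in signalling and DNA repair, as lysine-63 chains do. USP proteins are the largest family of deubiquitinases, cysteine proteases that cut ubiquitin off again or recycle free chains, and several are held in complexes with WD-repeat or chromatin proteins.

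With transcription blocked, the course of an mRNA follows its decay relative to the rest of the library. Each library was scaled to its own content, so a slope below 0, in log2 units per hour, means faster loss than the bulk of the mRNA, and a slope above 0 means slower loss. A rise in a share and a fall in the rest cannot be told apart here. Library totals were 9147018 to 11194705 counts. MYC, a short-lived mRNA used to check the time labels, was at 139, 143 and 121 counts per 1000000 (CPM) at 0 h, 80.7, 83.9 and 61.6 at 1 h, 17.9, 16.0 and 9.87 at 2 h and 10.6, 9.29 and 5.27 at 4 h, with a slope of −1.12 ± 0.10 (SE). Of 8 Ewing sarcoma marker genes, 7 were tested, while CD99, a surface marker of these tumours, was listed at 0 in each library. How reads were counted is not given in the sources used here, so this 0 does not show that CD99 mRNA was absent. The 6 markers of blood, endothelial, epithelial and liver cells together had 3 to 14 counts per library.

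AU-rich elements and Pumilio-type elements are short motifs in 3′ untranslated regions (UTRs) that are known for binding regulators of mRNA decay. Their sites in the members are shown first because the measurements below are of decay. The AU-rich core TTATTTATT was searched on the transcript strand of the Ensembl canonical transcript's 3′ UTR (GENCODE 44, GRCh38, matched by symbol for all 75 tested members). It was present in 2 of 31 E2 (UBE2K and UBE2W, 6.45%) and in 6 of 44 USP (13.6%), beside 10.1% of the 10819 tested genes with a 3′ UTR. The first copy in each gene is printed with 7 flanking bases on either side and the core in capitals, except for UBE2W, which is named only.
UBE2K, chr4:39780199-39780221 (+ strand): tttttctTTATTTATTttaaata
USP8, chr15:50502364-50502386 (+ strand): cccaaagTTATTTATTtttattt
USP12, chr13:27068599-27068621 (- strand): tttttccTTATTTATTttactta
USP15, chr12:62405823-62405845 (+ strand): tggtaaaTTATTTATTtatgtta
USP30, chr12:109086771-109086793 (+ strand): catctgtTTATTTATTgcccatg
USP31, chr16:23067993-23068015 (- strand): aagatgtTTATTTATTtagaacc
USP32, chr17:60177977-60177999 (- strand): ataaataTTATTTATTtcaggta
The shorter ATTTA, which lies within that core, was in the 3′ UTR of 93.5% of E2 and 84.1% of USP transcripts, beside 75.1% of all. The Pumilio-type motif TGTANATA was in 35.5% of E2, 40.9% of USP and 31.7% of all 3′ UTRs. It was in 11 of 21 falling USP, 2 of 7 rising USP and 5 of 16 USP that passed in neither direction. For E2 the numbers were 3 of 6, 2 of 8 and 6 of 17. The fast-falling USP27X and USP38 held 0 copies, and USP37, which fell, held 4. UBE2W, which passed in neither direction, also held 4, and the rising UBE2N held 2. Whether copies go with the slope was not tested. USP42, among the fastest-falling members, held 2 copies, printed with 8 flanking bases and the motif in capitals.
USP42, chr7:6160757-6160780 (+ strand): aaataccgTGTATATAaatcccat
USP42, chr7:6161503-6161526 (+ strand): tgccccacTGTAAATAtacagcat
USP8, USP12, USP30, USP31 and USP32 fell in the measurements below, and no member that rose held TTATTTATT. USP15, UBE2K and UBE2W did not pass the threshold in either direction. UBE2W held 9 copies and had a slope of −0.023 ± 0.031. The share of falling genes among all genes with the core was not counted. The steepest falls were not among the carriers, since USP27X, USP42 and USP38 had no TTATTTATT in these 3′ UTRs. A match of letters is a description of the reference sequence and no evidence of binding.

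Over the time course the slopes of USP mRNAs ran from −0.82 to 0.12 log2 units per hour and those of E2 mRNAs from −0.30 to 0.11. By edgeR's quasi-likelihood test with Benjamini-Hochberg adjustment over all 12032 genes, 21 of 44 USP fell (47.7%) and 7 rose (15.9%), while 6 of 31 E2 fell (19.4%) and 8 rose (25.8%). Among all tested genes 32.1% fell and 30.7% rose. The median slope was −0.050 for USP, 0.010 for E2 and 0.0093 for all genes, with the main scaling. Quartiles ran from −0.19 to 0.026 for USP and from −0.022 to 0.054 for E2. The rises depend on the scaling: relative to GAPDH plus ACTB the median of all genes shifted by −0.14 per hour, 39 USP and 26 E2 fell, none rose, and all 15 members that rose had slopes below 0. The median of all genes was −0.13 with that scaling. The shares of all genes that fell or rose with it were not counted, so these counts are no result about the members. The E2 median was −0.029 with library totals and −0.13 relative to GAPDH plus ACTB, and the USP median −0.090 and −0.19. The difference between the family medians was 0.060 per hour with library totals and 0.061 relative to GAPDH plus ACTB. Another scaling moves the slopes of all genes by nearly the same amount, so this difference could hardly change and the agreement is no check of it.

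In the separate replicates the E2 median exceeded the USP median by 0.053, 0.043 and 0.074 per hour, a mean of 0.056 ± 0.016 (SD, n = 3). Each replicate's own 0 h library gives the course in time. At 1 h the family difference was −0.032 ± 0.074 on the log2 scale, smaller than its spread, and at 2 h it was 0.070 ± 0.083. At 4 h the E2 median stood 0.16, 0.12 and 0.28 above the USP median, a mean of 0.19 ± 0.079. The E2 median at 4 h was −0.0099 ± 0.032 and the USP median −0.20 ± 0.066. No test was made of the families as lists, since their genes are not replicates.

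**Figure D1:**
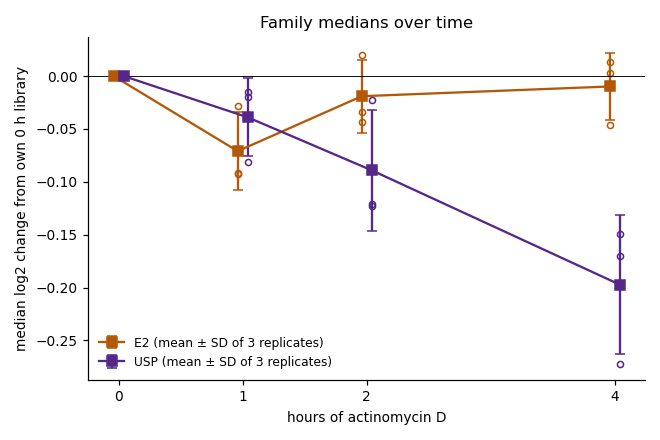
Median log2 change of the 31 E2 and 44 USP mRNAs from the same replicate's 0 h library against hours of actinomycin D. Open circles are the 3 replicates, and squares with bars are their mean ± SD. The families overlap at 1 and 2 h, and at 4 h the USP replicates (−0.15 to −0.27) lie below the E2 replicates (−0.046 to 0.014).

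All 50 USP together made up 3937 to 4074 CPM at 0 h, 3852 to 3964 at 1 h, 3739 to 3800 at 2 h and 3356 to 3542 at 4 h. The 33 E2 together held 2669 to 2918 CPM at 0 h and 2694 to 2828 at 4 h. The USP ranges at 0 h and 4 h did not overlap, and the E2 ranges did.

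**Figure D2:**
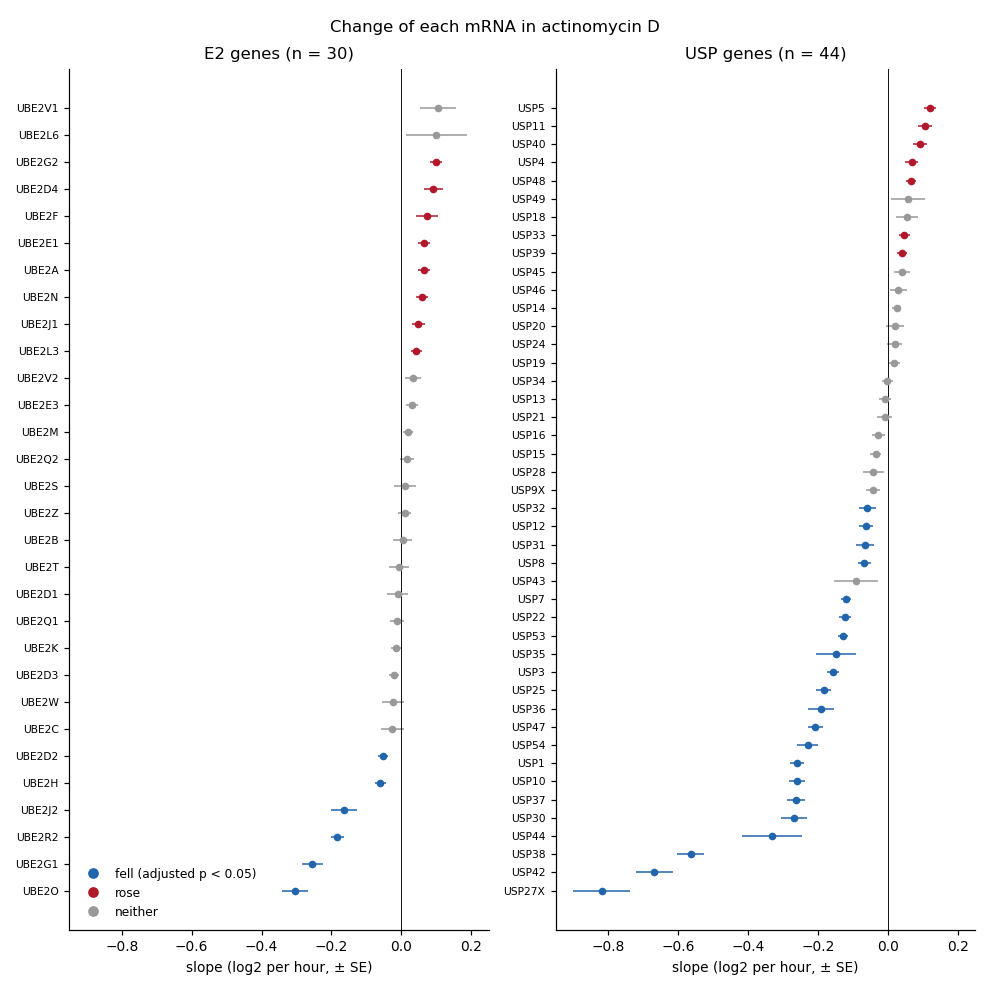
Slope of each tested mRNA except 1 E2 in log2 per hour with its SE, E2 genes on the left and USP genes on the right. Blue marks a fall and red a rise past an adjusted p of 0.05, the red points being below 0 when scaled to GAPDH plus ACTB. The USP genes reach from −0.82 to 0.12 and the E2 genes from −0.30 to 0.11.

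By time point, edgeR called no member at 1 h against 0 h, where 2.24% of all genes were lower and 0.349% higher. At an unadjusted p under 0.05, 3 E2 and 8 USP differed at 1 h, beside 14.2% of all genes. The replicate numbers pair the samples, and with the replicate as a block 4 E2 and 6 USP were lower at 1 h and 2 USP higher (all genes 10.5% lower and 6.18% higher). The 4 E2 were UBE2B, UBE2D1, UBE2T and UBE2W, none of which had a slope past the threshold. UBE2D1, which serves many RING-type E3 ligases, was at 24.7, 29.5 and 27.7 CPM at 0 h, 21.1, 21.2 and 21.6 at 1 h, 22.4, 25.6 and 25.5 at 2 h and 23.1, 26.6 and 24.9 at 4 h. Its 1 h libraries lay below all others, and the 4 h values overlapped those at 0 h.

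At 2 h against 0 h, 12 USP and 3 E2 were lower and 2 USP were higher, with 19.4% of all genes lower and 10.8% higher. With the block, 19 USP and 4 E2 were lower and 3 of each family higher (all genes 26.5% lower and 23.9% higher). At 4 h, 20 USP and 6 E2 were lower (31.6% of all genes) and 8 USP and 6 E2 were higher (28.7% of all genes). With the block, 25 USP and 8 E2 were lower at 4 h (36.0% of all genes) and 10 USP and 9 E2 were higher (36.8% of all genes). The block added as lower UBE2C, UBE2D3, USP9X, USP15, USP16, USP28 and USP32 (adjusted p = 0.041, 0.025, 0.0014, 0.0093, 0.048, 0.021 and 2.2e-04). It added as higher UBE2F, UBE2J1, UBE2V2, USP14 and USP49 (adjusted p = 0.030, 0.0019, 0.033, 0.026 and 0.038), each of which was below 0 relative to GAPDH plus ACTB without the block. The contrasts share their 0 h libraries. Relative to GAPDH plus ACTB no member was higher at 2 or 4 h without the block, and the share of all genes that was higher with that scaling was not counted.

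At 0 h, before decay, the median level per length of the tested members was 26.2 CPM per kb of transcript for E2 and 9.11 for USP. UBE2C, an E2 of the anaphase-promoting complex (APC/C), led with 107 CPM per kb, ahead of UBE2D3 at 91.6 and UBE2M, the E2 for the ubiquitin-like NEDD8, at 88.8. Of the USP, USP22, the histone deubiquitinase of the SAGA complex, had 87.8 CPM per kb, USP5 63.5 and USP1 57.8. UBE2C, UBE2D3 and UBE2M had slopes of −0.025 ± 0.033, −0.020 ± 0.015 and 0.019 ± 0.014, none past the threshold. With library totals their slopes were −0.063, −0.060 and −0.020, of which that of UBE2D3 passed as a fall (edgeR, adjusted p = 0.001). Relative to GAPDH plus ACTB they were −0.16, −0.16 and −0.12, and each passed as a fall.

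The steepest falls were those of 3 USP. USP27X (chrX:49879484-49882558 on GRCh38, + strand), a single-exon relative of USP22 that also acts on histone H2B, was at 6.20, 5.40 and 6.57 CPM at 0 h, 3.45, 4.71 and 5.17 at 1 h, 1.99, 1.22 and 2.42 at 2 h and 0.592, 0.968 and 0.336 at 4 h. Each 2 h and 4 h library lay below each 0 h and 1 h library. Its slope of −0.82 ± 0.081 (adjusted p = 2.4e-07) corresponds to a half-life of 1.22 h relative to the library. Its antisense neighbour USP27X-AS1 had 0 to 8 counts per library, and the strand setting of the counting is not given in the sources used here.

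USP42 (chr7:6104949-6161564, + strand), a p53 deubiquitinase, was at 31.4, 32.4 and 25.9 CPM at 0 h, 23.7, 25.1 and 22.1 at 1 h, 10.7, 11.1 and 8.23 at 2 h and 5.21, 6.39 and 4.15 at 4 h. All time points were separate from each other, each below the one before. The slope was −0.67 ± 0.054 (adjusted p = 2.9e-08, relative half-life 1.5 h). USP38 (chr4:143184917-143223874, + strand), whose product acts in innate immune signalling, was at 56.7, 56.7 and 56.0 CPM at 0 h, 48.4, 46.8 and 40.5 at 1 h, 29.8, 30.4 and 25.4 at 2 h and 14.8, 13.1 and 8.40 at 4 h, also with no overlap between time points. It had a slope of −0.56 ± 0.038 (adjusted p = 5.9e-09, relative half-life 1.77 h), and the fall was present in each replicate (−0.50, −0.54 and −0.68 per hour).

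The USP that act on histones did not move as a block. Of 6 tested, 4 fell (all genes 32.1%), 0 rose and 2 passed in neither direction. USP22 was at 465, 454 and 448 CPM at 0 h, 463, 478 and 444 at 1 h, 429, 446 and 401 at 2 h and 325, 339.8 and 327 at 4 h. Its 4 h libraries lay below all others, and the slope was −0.12 ± 0.017 (adjusted p = 8.7e-06). USP3, which removes ubiquitin from histone H2A, was at 62.7, 72.4 and 61.7 CPM at 0 h, 58.1, 57.1 and 56.4 at 1 h, 49.5, 53.2 and 51.6 at 2 h and 42.5, 40.9 and 42.9 at 4 h, with every time point below the one before and a slope of −0.16 ± 0.017 (adjusted p = 6.7e-07). USP44, a regulator of the mitotic checkpoint, was at 2.16, 2.51 and 2.40 CPM at 0 h, 1.82, 2.36 and 2.36 at 1 h, 1.69, 1.11 and 3.00 at 2 h and 0.829, 0.678 and 1.12 at 4 h, of which the 4 h libraries were lower than those at 0 h, with a slope of −0.33 ± 0.085 (adjusted p = 0.0028). Without replicate 2 the USP44 slope was −0.26 with an adjusted p of 0.056. USP16, an H2A protease, and USP49 had slopes of −0.027 ± 0.019 and 0.058 ± 0.048.

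Of the 3 USP known to be activated by the WD-repeat protein WDR48, 2 fell, beside 32.1% of all genes. USP1, which cleaves ubiquitin from PCNA and FANCD2 in DNA repair, was at 196, 216 and 212 CPM at 0 h, 183, 189.8 and 189 at 1 h, 156, 162 and 174 at 2 h and 96.8, 108 and 101 at 4 h. The time points did not overlap, and the slope was −0.26 ± 0.019 (adjusted p = 1.4e-08, relative half-life 3.86 h). USP12 fell by 0.062 per hour, and its close relative USP46 had a slope of 0.030 ± 0.025. WDR48 itself had a slope of 0.00028 ± 0.023. WDR20, the second WD-repeat partner of USP12 and USP46, was at 23.1, 24.7 and 23.0 CPM at 0 h, 15.9, 16.4 and 17.2 at 1 h, 9.44, 8.71 and 8.81 at 2 h and 7.46, 6.20 and 5.71 at 4 h, with no overlap between time points and a slope of −0.49 ± 0.042.

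Of 5 USP grouped here for known substrates in the p53 and MYC pathways, 4 fell, beside 32.1% of all genes. The group was chosen as a list and is not complete, since USP42, described above as a p53 deubiquitinase, is counted outside it. USP10, a cytoplasmic p53 deubiquitinase that binds G3BP1, was at 179.9, 184 and 185 CPM at 0 h, 173, 182 and 171 at 1 h, 143, 145 and 131 at 2 h and 103, 94.4 and 78.5 at 4 h. It stayed near its 0 h range at 1 h and then left it, with a slope of −0.26 ± 0.023 (adjusted p = 8.2e-08). USP37, which stabilises cyclin A, was at 76.8, 74.1 and 70.1 CPM at 0 h, 63.9, 75.5 and 63 at 1 h, 46.0, 47.1 and 48.0 at 2 h and 37.1, 40.6 and 33.3 at 4 h, with the 2 h and 4 h libraries below all earlier ones and a slope of −0.26 ± 0.026. USP7, the protease of MDM2 and p53, was at 319, 323 and 318 CPM at 0 h, 326, 329 and 297 at 1 h, 298, 291 and 281 at 2 h and 232, 238 and 231 at 4 h. All its 2 h libraries lay below those at 0 h (adjusted p = 6.5e-04 with the block), and all its 4 h libraries lay below every earlier one, with a slope of −0.12 ± 0.015 (adjusted p = 2.3e-06). USP28, known for stabilising MYC, had a slope of −0.041 ± 0.030 that did not pass the threshold.

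USP36, a nucleolar protease, had most of its change by 2 h. Its libraries were at 68.5, 62.7 and 60.6 CPM at 0 h, 65.9, 61.7 and 50.9 at 1 h, 48.9, 40.4 and 34.5 at 2 h and 46.2, 36.6 and 35.2 at 4 h. The 2 h and 4 h ranges overlapped, and the log2 differences from 0 h were −0.10 ± 0.13 at 1 h, −0.63 ± 0.13 at 2 h and −0.70 ± 0.13 at 4 h. UBE2O, in contrast, changed late, with 0.066 ± 0.081, −0.24 ± 0.082 and −1.15 ± 0.086 at the same times. The difference between these courses was not tested.

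**Figure D3:**
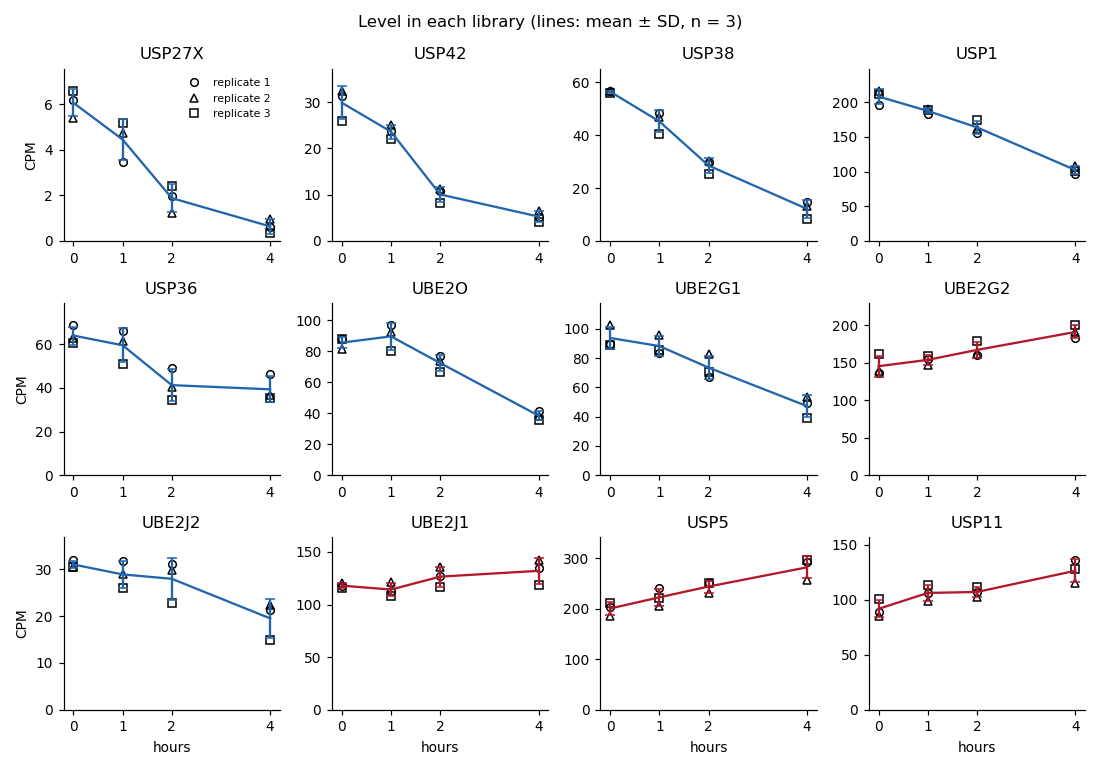
CPM in each library against hours of actinomycin D for 12 members, with symbols for the replicates and lines for the mean ± SD (n = 3); each axis starts at 0. Blue lines mark members that fell and red lines members that rose, the latter with slopes below 0 when scaled to GAPDH plus ACTB. USP27X drops from 5.40 to 6.57 CPM at 0 h to 0.336 to 0.968 at 4 h, and UBE2O stays level to 1 h before it falls.

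Among proteases of organelles and endosomes, 2 of 5 fell and 1 rose, beside 32.1% and 30.7% of all genes. USP30, which sits on the outer mitochondrial membrane and opposes mitophagy, was at 10.0, 9.26 and 10.8 CPM at 0 h, 8.24, 8.25 and 10.9 at 1 h, 7.55, 8.10 and 7.65 at 2 h and 4.86, 4.84 and 4.59 at 4 h. Its 4 h libraries lay below every other library, with a slope of −0.27 ± 0.038 (adjusted p = 1.2e-05). USP8, which recycles endosomal receptors, fell by 0.067 per hour. USP33 rose by 0.047 and had a slope of −0.091 relative to GAPDH plus ACTB. Its rise did not pass without replicate 1 (adjusted p = 0.087), without replicate 2 (0.11) or with library totals (0.72), and its relative USP20 had a slope of 0.021 ± 0.025. Of the other USP, USP54, USP47, USP25, USP35, USP53, USP31 and USP32 also fell, by 0.23, 0.21, 0.18, 0.15, 0.13, 0.065 and 0.058 per hour.

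Of 3 USP of free chains and the proteasome, 1 rose, and of 3 with the DUSP and ubiquitin-like domain arrangement, 2 rose, beside 30.7% of all genes, and all 3 rising members had slopes below 0 when scaled to GAPDH plus ACTB. USP5, which takes apart unanchored ubiquitin chains, was at 205, 187 and 211 CPM at 0 h, 241, 207 and 221 at 1 h, 251, 231 and 251 at 2 h and 293, 257 and 297 at 4 h. The 4 h libraries lay above every earlier one, and the slope was 0.12 ± 0.017 (adjusted p = 1.1e-05; −0.017 relative to GAPDH plus ACTB). USP11 was at 89.2, 85.7 and 101 CPM at 0 h, 106, 99.4 and 114 at 1 h, 107, 103 and 112 at 2 h and 136, 115 and 128 at 4 h, with 0 h and 4 h apart and a slope of 0.11 ± 0.019 (adjusted p = 1.5e-04; −0.033 relative to GAPDH plus ACTB).

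USP4, USP40 and USP48 had slopes of 0.069 ± 0.018, 0.092 ± 0.020 and 0.066 ± 0.015, which became −0.069, −0.046 and −0.072 relative to GAPDH plus ACTB. With library totals the rises of USP4 and USP48 did not pass (edgeR, adjusted p = 0.15 and 0.16), and that of USP40 did (0.041). USP39, a splicing factor of the tri-snRNP without protease activity, had 0.040 ± 0.013 and −0.10, and its rise did not pass without replicate 2 or 3 or with library totals. The proteasome-bound USP14 had 0.025 ± 0.013 (adjusted p = 0.094), which passed the threshold with the replicate block (adjusted p = 0.031). The block also added falls of USP9X (adjusted p = 0.016) and USP15 (adjusted p = 0.047).

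Turning to the E2 enzymes, the steepest fall was that of UBE2O (chr17:76389456-76453152, − strand), a large enzyme that combines E2 and E3 activity and marks unassembled proteins. It was at 87.6, 81.5 and 87.7 CPM at 0 h, 96.7, 92.3 and 80.0 at 1 h, 76.8, 73.9 and 66.6 at 2 h and 41.2, 38.5 and 35.8 at 4 h. The 4 h libraries were below all others, while 0 h and 1 h overlapped. Its slope was −0.30 ± 0.037 (adjusted p = 2.4e-06, relative half-life 3.29 h). UBE2R2, a partner of SCF ubiquitin ligases that makes lysine-48 chains, was at 104, 114 and 119.5 CPM at 0 h, 103, 103 and 109 at 1 h, 93.9, 94.9 and 82.8 at 2 h and 72.4, 71.0 and 62.9 at 4 h, with a slope of −0.18 ± 0.019 (adjusted p = 3.2e-07). All its 2 h libraries lay below its 0 h libraries, and all its 4 h libraries below those of 2 h. CDC34, the other SCF-directed E2 of this type, had a slope of −0.091 ± 0.023.

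The 4 E2 enzymes of ER-associated degradation, which clears misfolded proteins from the endoplasmic reticulum, all passed the threshold, 2 falling and 2 rising. Of all tested genes 32.1% fell and 30.7% rose, so passing in either direction was common. UBE2G1 (chr17:4269259-4366675, − strand) was at 90.0, 102 and 89.1 CPM at 0 h, 83.4, 95.9 and 85.3 at 1 h, 67.3, 82.5 and 70.8 at 2 h and 49.2, 53.5 and 39.1 at 4 h. Its 4 h libraries lay below all earlier ones. It fell in each replicate (−0.23, −0.24 and −0.30 per hour), with a slope of −0.25 ± 0.029 (adjusted p = 1.1e-06). UBE2G2 (chr21:44768580-44801826, − strand) was at 136, 139 and 161 CPM at 0 h, 155, 147 and 159 at 1 h, 159.8, 162 and 179 at 2 h and 182, 191 and 199 at 4 h. The 4 h libraries exceeded all earlier ones, and the slope was 0.10 ± 0.016 (adjusted p = 5.7e-05), or −0.038 relative to GAPDH plus ACTB.

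The membrane-anchored pair showed the same division. UBE2J2 was at 31.9, 30.5 and 30.6 CPM at 0 h, 31.7, 28.9 and 26.1 at 1 h, 31.2, 29.9 and 22.8 at 2 h and 21.3, 22.4 and 14.8 at 4 h, with its 4 h libraries below all others and a slope of −0.16 ± 0.037 (adjusted p = 9.3e-04). UBE2J1 was at 118, 120.4 and 116 CPM at 0 h, 113, 122 and 109 at 1 h, 127, 136 and 117 at 2 h and 135, 142 and 119 at 4 h, ranges that overlapped, with a slope of 0.049 ± 0.018 (adjusted p = 0.029), or −0.090 relative to GAPDH plus ACTB. Without replicate 1 or without replicate 2 the UBE2J1 slope did not pass (adjusted p = 0.15 and 0.13), nor did it with library totals (0.64).

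Most other E2 had slopes nearer to 0. In the UBE2D family, general partners of RING-type ligases, UBE2D2 fell by 0.053 per hour, and UBE2D4 had 0.092 ± 0.027 (−0.047 relative to GAPDH plus ACTB), a rise that did not pass without replicate 1 (adjusted p = 0.090), without replicate 2 (0.055) or with library totals (0.092). UBE2H, the E2 of the CTLH ligase, fell by 0.059. UBE2A, a RAD6 homolog that acts in DNA damage tolerance, had 0.064 ± 0.017, and UBE2B, the other homolog, 0.0039 ± 0.028. UBE2N, the E2 for lysine-63 chains, was at 132, 155 and 148 CPM at 0 h, 141, 141 and 135 at 1 h, 148, 159 and 146 at 2 h and 171, 173 and 159 at 4 h, with the 4 h libraries level with or above the highest earlier one. Its slope was 0.060 ± 0.017 (adjusted p = 0.005), and those of its inactive partners UBE2V1 and UBE2V2 were 0.11 ± 0.051 and 0.034 ± 0.022, neither past the threshold. With the replicate block UBE2V2 passed (adjusted p = 0.037).

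UBE2E1, UBE2L3 and UBE2F had slopes of 0.065 ± 0.018, 0.043 ± 0.015 and 0.074 ± 0.031. UBE2F, a NEDD8 E2 for CUL5, had replicate slopes of 0.14, −0.018 and 0.10, and its call was lost under DESeq2 (size factors or Wald test) and without replicates 1 or 3. Relative to GAPDH plus ACTB the slopes of UBE2A, UBE2N, UBE2E1, UBE2L3 and UBE2F were −0.073, −0.079, −0.073, −0.10 and −0.065. With library totals none of these rises passed (edgeR, adjusted p = 0.24, 0.25, 0.25, 0.82 and 0.35, in the same order). UBE2S, the chain-extending E2 of the APC/C, was near level at 0.010 ± 0.031. The read-through genes UBE2F-SCLY and TMEM189-UBE2V1 were listed at 0, and since it is not known how reads in these overlapping gene models were counted, the levels of UBE2F and UBE2V1 are uncertain.

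Paralogs were compared as the ratio of their counts within each library, which needs no scaling between libraries. Of 26 pairs considered, 22 had both genes tested, and in 11 the ratio changed over time (permutation test of the slope, two-sided, 100000 resamples, adjusted over the 22 pairs). With the replicates as blocks 14 passed. Pairs of unrelated genes were not tested, and by slope 32.1% of all genes fell and 30.7% rose. The number of pairs that passed is therefore no result about paralogs as such. UBE2G1 counts were 0.552 to 0.738 times those of UBE2G2 at 0 h and 0.196 to 0.281 times at 4 h. That ratio fell by 0.36 log2 units per hour (permutation p = 1e-05, the smallest these resamples give, adjusted p = 7.3e-05). UBE2J1 to UBE2J2 went from 3.68 to 3.94 to 6.31 to 8.0, a slope of 0.22 (permutation, adjusted p = 4.4e-04).

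The USP22 to USP27X ratio gave the largest slope, 0.72 per hour, from 67.7 to 83.4 at 0 h to 334 to 834 at 4 h (permutation, adjusted p = 7.3e-05). USP36 to USP42 went from 1.93 to 2.34 to 5.69 to 8.78 (slope 0.47, permutation, adjusted p = 7.3e-05). USP5 rose against USP13, another protease of the same fold, from 3.63 to 3.82 to 5.25 to 5.73 (slope 0.13, permutation, adjusted p = 5.5e-04), and USP13 itself had a slope of −0.0081 ± 0.018. USP11 and USP4 both rose against USP15, by 0.14 and 0.10 per hour. USP25 fell against USP28 by 0.14, USP12 against USP46 by 0.092, USP54 against USP53 by 0.10, and UBE2D2 against UBE2D3 by 0.033.

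**Figure D4:**
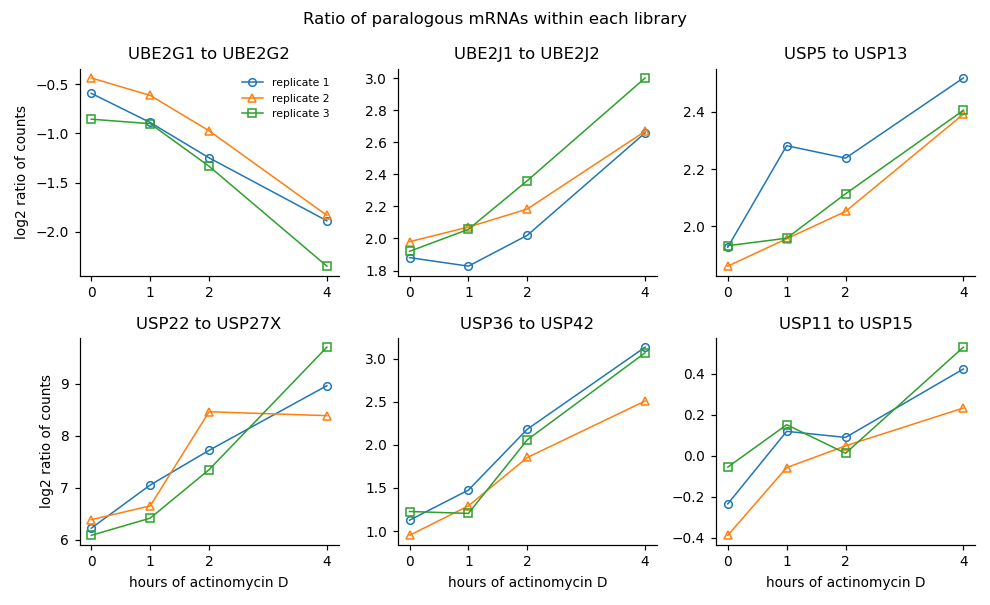
Log2 ratio of the counts of 6 paralog pairs within each library against hours of actinomycin D, 1 line per replicate. Each vertical axis has its own range and none starts at 0. UBE2G1 falls against UBE2G2 in all 3 replicates, while UBE2J1, USP5, USP22, USP36 and USP11 gain on UBE2J2, USP13, USP27X, USP42 and USP15.

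Of the other 11 pairs, 3 passed only with the replicates as blocks (adjusted exact permutation p = 0.015 for UBE2E1 to UBE2E3, 0.0083 for USP16 to USP45 and 0.03 for USP3 to USP44), and the remaining 8 passed in neither test. UBE2A to UBE2B had a slope of 0.058 (permutation, adjusted p = 0.077) and UBE2Q1 to UBE2Q2 −0.029 (permutation, adjusted p = 0.081). The UBE2D2 to UBE2D3 and USP25 to USP28 changes were lost without replicate 1 or 2, USP53 to USP54 without replicate 2 or 3, and USP12 to USP46 without replicate 2.

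The transcripts of both families differ in build. Canonical E2 transcripts had a median length of 2861 bases with 540 coding bases and 6 exons, and USP transcripts 5140 bases with 2916 coding bases. Exon density, in exons per kb of transcript, had a median of 2.46 for E2, 3.56 for USP and 3.05 for all tested genes with a 3′ UTR. Within the USP family the 21 falling members had 0.325 to 5.32 exons per kb and the 7 rising members 5.41 to 6.57, so these ranges did not overlap. At or above 5.41, a limit set by the rising members themselves, lay 14 USP, of which 7 rose and 7 passed in neither direction. Of the 30 below it, 21 fell and 9 passed in neither direction. The shares of all genes that fell or rose at these densities were not counted.

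USP27X, with 1 exon, had the lowest density and the steepest slope of the family. Falling and rising E2 overlapped, at 1.12 to 3.35 and 0.82 to 4.68 exons per kb. Spearman's rank correlation of slope with exon density was 0.52 across the 44 USP genes, 0.069 across the 31 E2 genes and 0.46 across all 10819 genes, as a description of genes that share the same libraries. Rising USP also had shorter 3′ UTRs (median 1119 bases) than falling ones (2092 bases), and their median GC content was 49.8% against 43.6%. The 16 USP that passed in neither direction had medians of 2032 bases and 43.6%. Among E2 the medians lay the other way, with 3′ UTRs of 2581 bases for rising and 2398 for falling members and a GC content of 43.6% against 47.9%. Spearman's correlation of slope with 3′ UTR length was −0.169 for USP, −0.145 for E2 and −0.267 for all genes. With GC content it was 0.131, −0.062 and 0.272. Relative to GAPDH plus ACTB the slopes of all 7 rising USP lay below 0.

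**Figure D5:**
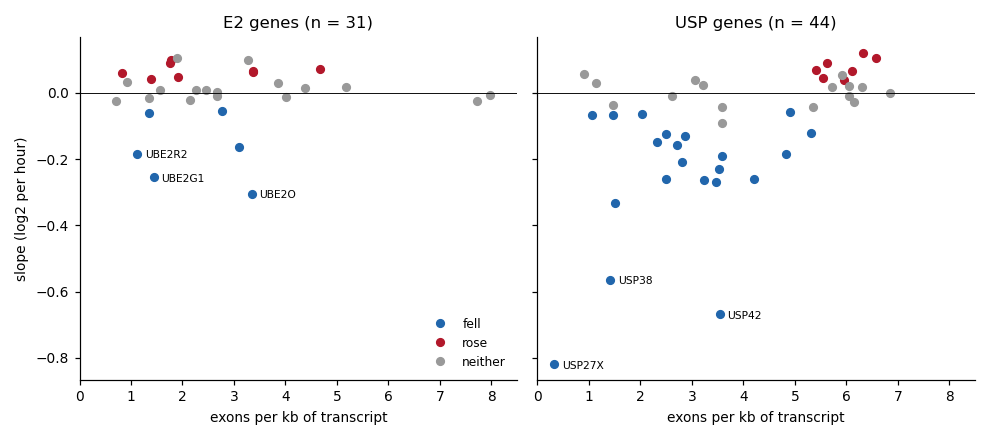
Slope in log2 per hour against exons per kb of the canonical transcript for E2 genes (left) and USP genes (right), 1 point per gene. Blue points fell and red points rose, the red ones being below 0 when scaled to GAPDH plus ACTB. All 7 rising USP lie at 5.41 exons per kb or more, and all 21 falling USP at 5.32 or less. Of the USP that passed in neither direction, 7 lie at 5.41 or more and 9 below.

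Other genes of the pathway were also measured, and their counts are given beside the 32.1% of all genes that fell and the 30.7% that rose. Among the genes that encode ubiquitin itself, UBB had a slope of −0.034 ± 0.026 that did not pass, and RPS27A, which encodes ubiquitin fused to a ribosomal protein, had 0.11 ± 0.016 (−0.031 relative to GAPDH plus ACTB). Of 10 E1 genes 1 fell and 5 rose. The fall was that of MOCS3, the activator of the sulfur carrier URM1, at −1.0 ± 0.084, and UBA1, the main ubiquitin E1, had 0.14 ± 0.014 (0.00049 relative to GAPDH plus ACTB).

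Of 32 tested deubiquitinases outside the USP family 12 fell (37.5%) and 11 rose (34.4%), shares near those of all genes, with a median slope of 0.023. OTUD1, TNFAIP3 and VCPIP1, members of the OTU family, had slopes of −0.88 ± 0.072, −0.59 ± 0.085 and −0.46 ± 0.057. Relative to GAPDH plus ACTB 9 of the 11 rises had slopes below 0. Of 7 tested E2-fold genes outside the pattern 3 fell and 1 rose, with BIRC6 at −0.12 ± 0.032 and UFC1, the E2 for UFM1, at 0.10 ± 0.014 (−0.040 relative to GAPDH plus ACTB). Of 8 cofactors of USP 3 fell and 1 rose. SART3, which recruits USP4 and USP15, had −0.17 ± 0.024, and of the SAGA subunits that activate USP22, ATXN7L3 had −0.071 ± 0.020 and ENY2 0.068 ± 0.021 (−0.069 relative to GAPDH plus ACTB).

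The 8 members below the count limit were UBE2E2, UBE2U, USP2, USP6, USP26, USP29, USP50 and USP51. USP26 and USP29 were listed at 0, and the highest count of any of the others in a library was 9, for USP2. In the fit without the count limit USP2 and USP51 were called as falling (edgeR, adjusted p = 0.0016 and 0.017). USP2, a protease known for acting on cyclin D1, had 9, 2 and 6 counts at 0 h, 3, 5 and 8 at 1 h, 1, 2 and 3 at 2 h and 0 in each library at 4 h, which lay below every earlier library. USP51 had 3, 3 and 6 counts at 0 h, 4, 4 and 2 at 1 h, 0, 2 and 1 at 2 h and 1, 1 and 0 at 4 h, with its 4 h libraries below those at 0 h. No fold is given for counts this low. UBE2E2, UBE2U, USP6 and USP50 did not pass in that fit.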

How the data were processed

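RNA-Seq counts of 12 A673 libraries were analysed (3 biological replicates at each of 4 time points). The deposited values are raw counts per gene symbol. The submitters' processing notes name FastQC, STAR and hg19. The counter, annotation and strand setting are not given in the sources used here, so overlapping genes and paralogs are uncertain to that extent. Library totals were 9147018 to 11194705, and the common biological coefficient of variation was 0.0905.

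The 12032 genes whose mean reached 10 counts were fitted with edgeR 4.0.16 (R 4.3.3; TMM factors, glmQLFit and glmQLFTest), with time in hours as a number, or as 4 groups for contrasts with 0 h. Benjamini-Hochberg adjustment ran over all genes, with a threshold of 0.05. SEs come from the F statistic, and a relative half-life is −1 divided by the slope. CPM values use TMM-scaled library sizes. Counting error enters through the fitted dispersion. The script was tested on simulated data. Paralog ratios, log2 with a pseudocount of 0.5, were tested by permuting times over libraries.

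Same-numbered samples deviated together (r = 0.30 to 0.61 over 18 sample pairs, against −0.40 to 0.084 over 36 with different numbers), so the replicate numbers, which come from the labels, pair the samples. The main fit has no block. None of the 12 replicate pairs agreed within sampling noise.

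Transcript features and coordinates are from GENCODE 44 on GRCh38, matched by symbol, and the list genes ZUP1 and MINDY1 to MINDY3 by an older name. No coordinates of the hg19 files were used. Alternatives were other scalings (library totals, DESeq2 1.42.0 size factors, GAPDH plus ACTB), DESeq2's Wald test, filters, the replicate block, leaving out each replicate and fewer times. Named genes were, per family, the 6 steepest falls and 6 steepest rises with 1 sign in all replicates, the 3 highest per kb at 0 h, genes of changed paralog pairs, and up to 4 per list; any member past the threshold could also be given with its slope. Members and list genes named outside this rule, such as USP46, WDR48 and UBB, were chosen after their values were seen. The members and lists were chosen with earlier results of these data known. The values of 1 E2 member, which stays in the family counts and medians, and of some list genes are not reported here.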

Additional observations from a re-analysis of the deposited data

How the results depend on the processing

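Among the alternatives in this section, shares of all genes called were counted only for the time points with the replicate block. The other changes in counts cannot be told apart from changes that all genes share. Relative to GAPDH plus ACTB more members fell: 26 E2 and 39 USP by slope, 26 and 39 at 4 h, 12 and 23 at 2 h, and 2 USP at 1 h. No member rose then (0 by slope, 0 at 4 h, 0 USP at 2 h). Signs turned for UBE2G2 (−0.038), UBE2D4 (−0.047), UBE2E1 (−0.073), UBE2A (−0.073), UBE2N (−0.079), UBE2J1 (−0.090), UBE2M (−0.12), USP5 (−0.017), USP11 (−0.033), USP40 (−0.046), USP4 (−0.069), USP48 (−0.072), USP33 (−0.091), SAE1 (−0.018), UBA3 (−0.076), RPS27A (−0.031), UFC1 (−0.040), ENY2 (−0.069) and CCND1 (−0.074). With library totals 1 E2 and 3 USP rose by slope and the same numbers at 4 h, where 11 E2 fell, and UBE2M turned to −0.020. Without a count filter 23 USP fell, USP2 and USP51 being added, 5 E2 rose by slope and 5 USP were higher at 4 h. With 0, 1 and 2 h alone 2 E2 and 11 USP fell and 1 E2 and 2 USP rose, the difference between family medians was 0.019, and UBE2D3 (0.011), USP28 (0.044), USP13 (0.039) and CDC34 (0.0077), none past the threshold, turned sign, as did USP35, a falling member (0.031). With 1, 2 and 4 h alone 5 E2 rose, the difference was 0.090, 6 paralog pairs passed and UBE2C turned to 0.0042. Why these values moved was not tested, beyond the smaller number of libraries.

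With the replicate block, which follows the pairing, calls rose at 1 h (4 E2 and 6 USP lower, 2 USP higher) and at 2 h (3 E2 higher, 19 USP lower), the 4 h counts were 8 E2 and 25 USP lower and 9 E2 and 10 USP higher, the slope counts were 6 and 9 for E2 and 23 and 8 for USP, and the difference between medians was 0.059. The members called by slope all kept their call and direction; the additions are named beside the results.

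Leaving out each replicate in turn left 3 to 6 rising E2 by slope (3 without replicate 1), 2 to 5 E2 and 4 to 6 USP higher at 4 h (2 and 4 without replicate 1, 4 USP without replicate 2), 1 to 2 E2 and 7 to 14 USP lower at 2 h, 0 to 1 E2 and 0 to 2 USP higher at 2 h, and no other count beyond 1.5 times. The difference between family medians was 0.047 to 0.075, and 8 to 11 paralog pairs passed. All 6 falling E2 kept their call in each of these fits, and USP12, USP31, USP32, USP35 and USP44 lost theirs in at least 1, as did the rising UBE2A, UBE2D4, UBE2F, UBE2J1, UBE2L3, UBE2N, USP33 and USP39. DESeq2 size factors, DESeq2's Wald test and a mean of at least 50 counts moved no count by over 1.5 times. In these fits depth limits USP27X, USP44, UBE2L6 and UBE2V1, with the lowest counts.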
